A study of Homo sapiens with 24 samples.

Results

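The 10 genes described here, FEM1B, SNRNP35, TAF5L, HIPK3, EXT2, MARK2, ADCY9, BFAR, TBC1D16 and MSL2, each carried a pair of neighbouring N6-methyladenosine (m6A) positions of which the R298P libraries used one and the WT libraries the other. They are 10 of 10457 genes that held a merged m6A region, and their spans held 71 of the 34313 regions of the whole map. In each gene the position used by R298P is called site A and its neighbour site B. The genes were chosen on the same libraries and the same contrast, so the presence of sites A and B in R298P and WT libraries is a description with no test. The D312A and EGFP libraries also counted in the choice of each pair.

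The study mapped m6A by sequencing RNA fragments bound by an anti-m6A antibody in HepG2, an established human liver cancer cell line. The 4 stable lines were made with integrating lentiviruses and puromycin selection and expressed METTL14 (R298P), METTL14 (D312A), METTL14 (WT) or, as the control, EGFP. Each line gave 3 biological replicates, that is 12 immunoprecipitated libraries with a summit list each, beside 12 input libraries. The labels name no deletion of the cells' own METTL14, and they do not say whether a line is 1 clone.

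METTL14 forms with METTL3, the catalytic subunit, the methyltransferase that deposits m6A on mRNA, and contributes to RNA binding. The enzyme modifies adenosines within a short consensus sequence, often late in the coding sequence and in the 3′ untranslated region, and many transcripts carry several such sites close together. Reader proteins that bind m6A influence the splicing, translation and decay of the transcript.

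The lists held between 8669 (D312A replicate 2) and 15373 (EGFP replicate 1) summits, and the reads behind them are unknown. The gene METTL14 had 10, 6 and 9 summits in the 3 R298P libraries, 9, 9 and 3 in the D312A libraries, 11, 9 and 7 in the WT libraries, and 1 in each EGFP library. Each of the 12 hepatocyte markers examined had a summit in at least 1 library, and their summed summits per library were 19 to 77 in R298P, 12 to 84 in D312A, 37 to 106 in WT and 18 to 89 in EGFP. Of markers of other cell types, 2 of 5 for fibroblasts and stellate cells, 3 of 4 for blood and 2 of 4 for endothelium had a summit in at least 1 library, with summed summits per library of 0 to 4, 2 to 6 and 0 to 1. COL1A1, COL1A2, COL3A1, PTPRC, VWF and KDR had none. A summit is the highest point of 1 called peak, and its value is the authors' −log10 p or q value for that peak. No list gave more than 1 summit to a peak, so a peak that covers both positions shows only the higher one, and the lists do not give the edges of peaks. Neighbouring summits within 100 nt were merged into a region, and RNA had been broken into fragments of about 120 nt.

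A region was called gained in R298P when 3 of 3 R298P and 0 of 3 WT libraries held it, and lost in the opposite case. Of 27561 regions held by at least 1 of these 6 libraries, 196 (0.711%) were gained and 475 (1.72%) were lost. With lists cut to equal length the numbers were 263 and 264, so the larger number of lost regions depended on the lengths of the lists. Of 4077 pairs of regions whose median positions lay 100 to 250 nt apart, 15 (0.368%) joined a gained to a lost region, and 9 of the 10 genes held such a pair. HIPK3 was the exception, with the same calls at a median distance of 254.5 nt, just outside the limit, and with 246 nt between the nearest summits of its sites. FEM1B at 246 nt and MARK2 at 221.5 nt were the pairs just inside, and the next pair beyond HIPK3 lay in TRIM26 at 285 nt. The sites were not tested, because the same libraries chose them.

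**Figure D1:**
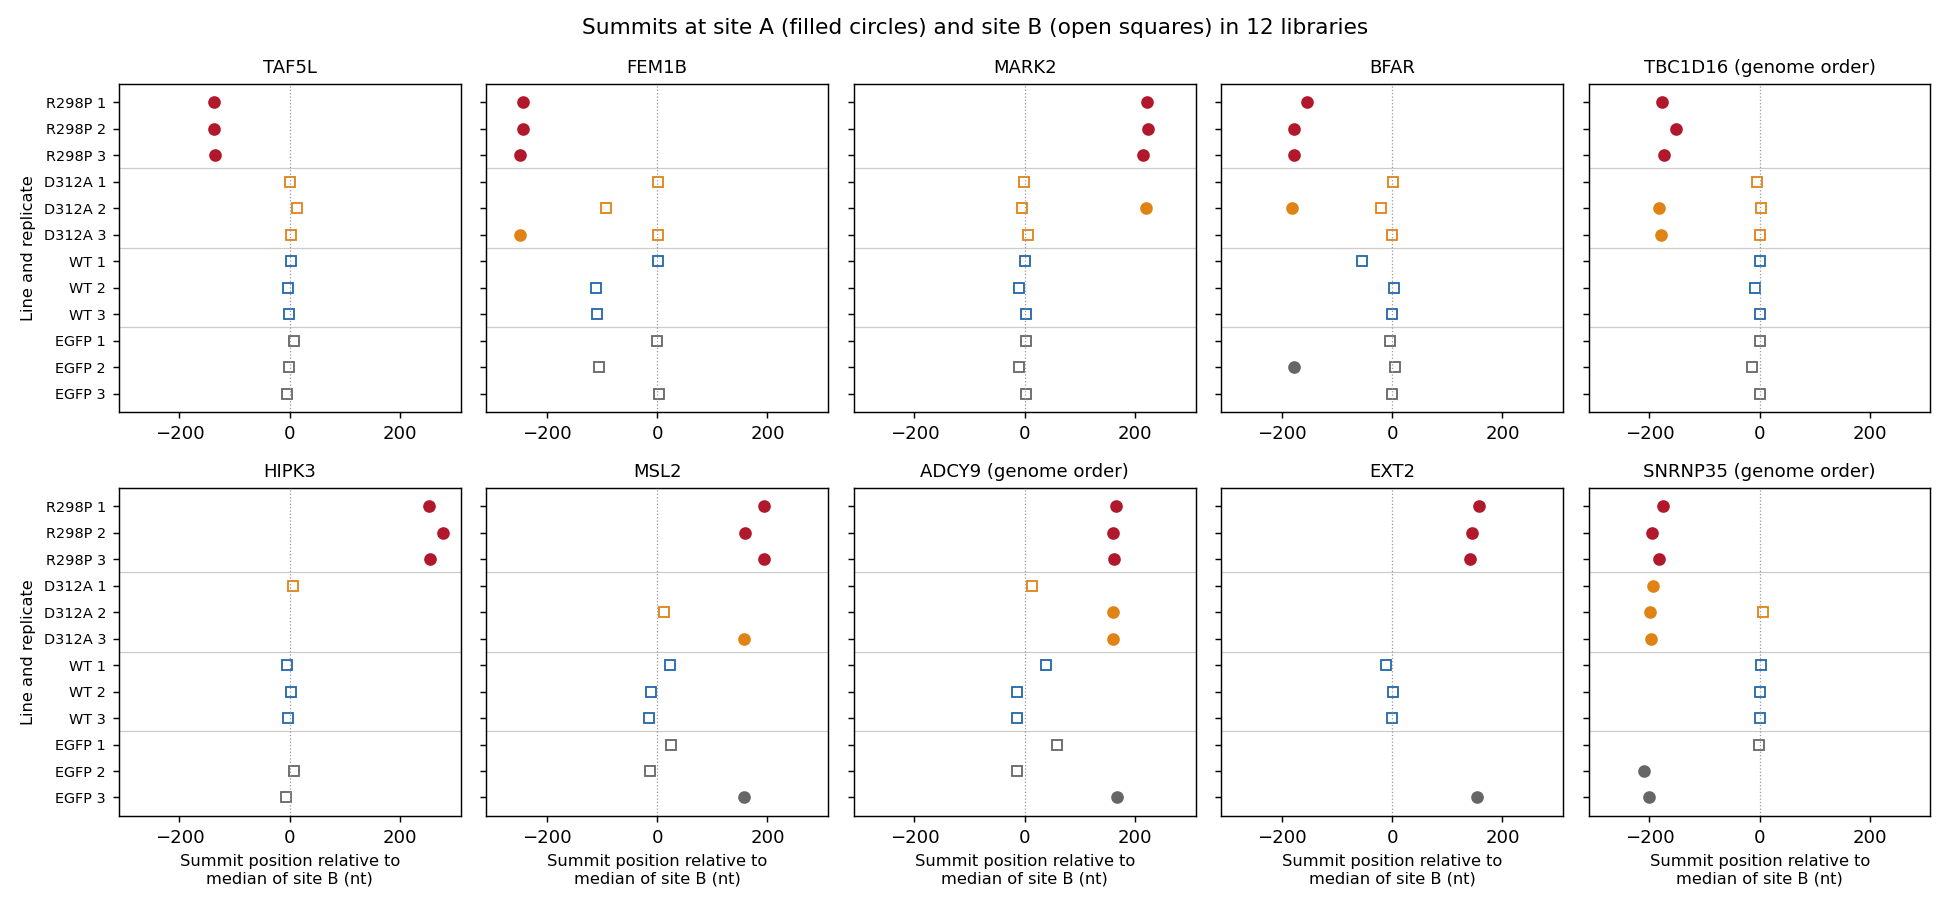
Positions of summits at site A (filled circles) and site B (open squares) in nt relative to the median of site B, for each of the 12 libraries from R298P at the top to EGFP at the bottom; transcripts run left to right, except for 3 genes drawn in genome order. All R298P summits lie away from 0 and the WT summits near it, apart from WT replicates 2 and 3 of FEM1B, whereas several D312A libraries show both sites.

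TAF5L, a subunit of the SAGA histone acetyltransferase complex, showed the separation in every library. Site A (hg38, chromosome 1, 229594923 to 229594926) held summits with values of 18.8, 20.4 and 29.7 in R298P replicates 1, 2 and 3 and no summit in the other 9 libraries. Site B (229594775 to 229594793) held none in R298P. Its values were 16.7, 20.9 and 30.9 in D312A, 25.8, 24.3 and 38.6 in WT, and 22.1, 24.2 and 22.0 in EGFP. The sites lay 137 nt apart, the shortest distance among the 10 genes, and the 3 summits at site A lay within 3 nt of one another and the 9 at site B within 18 nt. TAF5L alone of the 10 genes matched in all 24 calls, that is 12 libraries at each site, the pattern of site A in R298P libraries and site B in every other library.

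FEM1B encodes a substrate receptor of a cullin 2 ubiquitin ligase. Its site A (chromosome 15, 68290944 to 68290948) had values of 29.0, 28.2 and 31.2 in R298P, and otherwise a single weaker summit of 10.2 in D312A replicate 3. Site B (68291081 to 68291196) had values of 32.5, 27.2 and 24.0 in D312A, 36.2, 34.3 and 32.1 in WT, and 31.0, 41.4 and 31.2 in EGFP, and none in R298P. Site B was spread over 115 nt. D312A replicate 2, WT replicates 2 and 3 and EGFP replicate 2 had their summit between 68291081 and 68291100, and the other 5 libraries between 68291192 and 68291196. Both parts lay on the same side of site A. FEM1B lost its call when summits were merged within 50 nt, without replicate 2, or with each summit assigned to the nearer site.

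MARK2 is a kinase of the Par-1 family that acts on microtubules and cell polarity. Site A (chromosome 11, 63909327 to 63909335) had values of 23.5, 22.6 and 21.2 in R298P, and D312A replicate 2 held a weak summit of 7.55 there. Site B (63909102 to 63909118) had values of 22.0, 11.8 and 17.7 in D312A, 23.1, 13.1 and 23.3 in WT, and 33.1, 16.7 and 13.6 in EGFP. Apart from a region near its start seen in 1 D312A and 1 EGFP library, these were the only regions of the gene, so each R298P library and each WT library had exactly 1 summit in MARK2, at different places. The sites lay 221.5 nt apart, and MARK2 was the only one of the 10 genes still called with summits merged within 200 nt.

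TBC1D16, a Rab GTPase-activating protein, held both sites in some D312A libraries. Site A (chromosome 17, 79939658 to 79939689) had values of 26.4, 24.4 and 27.2 in R298P, against 15.1 and 18.4 in D312A replicates 2 and 3, and no summit in WT or EGFP. Site B (79939827 to 79939842) had values of 17.8, 32.3 and 34.1 in D312A, 27.8, 37.5 and 31.0 in WT, and 28.9, 31.6 and 30.6 in EGFP. Where D312A held both, site B had the higher value.

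BFAR, a ubiquitin ligase of the endoplasmic reticulum membrane that regulates apoptosis, had weaker summits. Site A (chromosome 16, 14668016 to 14668042) had values of 14.6, 11.7 and 21.1 in R298P, 9.12 in D312A replicate 2 and 12.7 in EGFP replicate 2. Site B (14668143 to 14668202) had values of 10.1, 7.40 and 9.98 in D312A, 11.1, 9.18 and 9.47 in WT, and 9.86, 13.9 and 10.0 in EGFP. In every library of WT, D312A and EGFP the summit at site B was in the lower or middle part of its list, with 6.98% to 50.3% of the list's summits at or below it. BFAR was not called with lists of equal length or with summits of a value of at least 10.

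**Figure D2:**
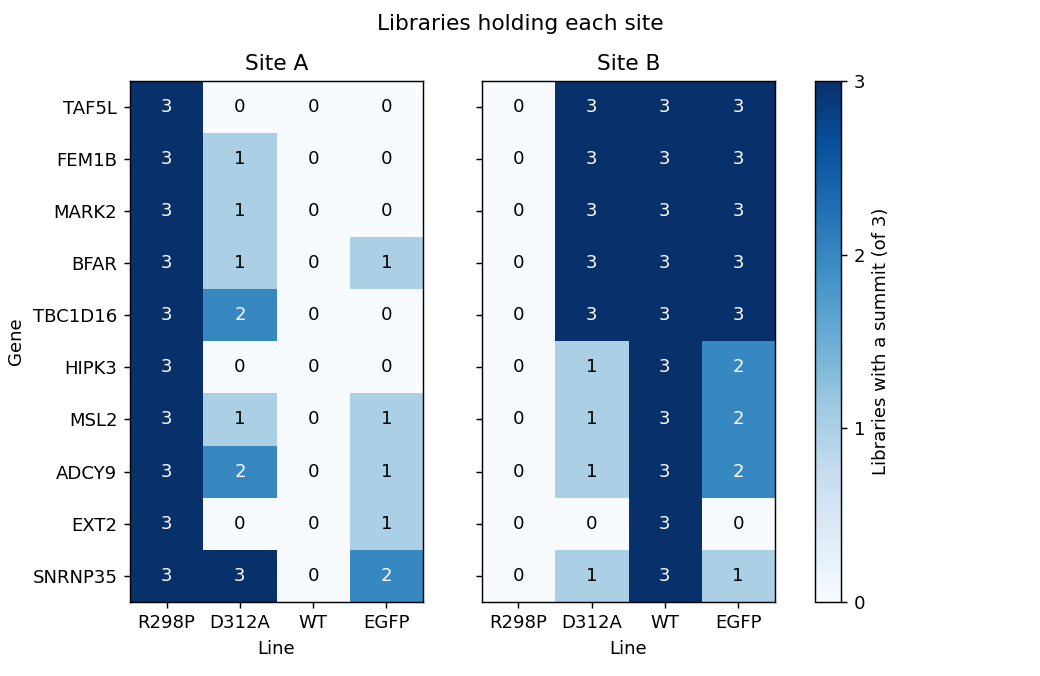
Number of libraries of 3 with a summit at site A (left) and site B (right), for each gene (rows) and each line (columns), with the genes in order of their match to the pattern of TAF5L. The R298P and WT columns were fixed by the choice of genes, in which D312A and EGFP libraries also counted. In D312A and EGFP 5 genes held site B in all libraries and EXT2 in none.

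In these 5 genes site B was in all 9 libraries of D312A, WT and EGFP. In the other 5 it was shared less widely, and the description of a site used by all other lines holds in full for none of them. D312A held site B of HIPK3, MSL2, ADCY9 and SNRNP35 in 1 of 3 libraries each and that of EXT2 in none. HIPK3, a homeodomain-interacting protein kinase, had site A (chromosome 11, 33286796 to 33286821) at 15.2, 8.18 and 12.6 in R298P and in no other library. Its site B (33286536 to 33286550) had a value of 11.2 in D312A replicate 1, 11.5, 10.9 and 13.5 in WT, and 13.0 and 20.6 in EGFP replicates 2 and 3. Neither site was seen in D312A replicates 2 and 3 and EGFP replicate 1.

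MSL2 is the ubiquitin ligase subunit of the MSL complex, which acetylates histones together with KAT8. Site A (chromosome 3, 136151494 to 136151531) had values of 12.3, 13.7 and 15.8 in R298P, 16.5 in D312A replicate 3 and 8.50 in EGFP replicate 3. Site B (136151663 to 136151703) had values of 12.1 in D312A replicate 2, 12.4, 18.3 and 18.2 in WT, and 11.1 in both EGFP replicate 1 and EGFP replicate 2. Within site A the R298P summits themselves lay at 2 places, at 136151494 in replicates 1 and 3 and at 136151529 in replicate 2.

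ADCY9, an adenylyl cyclase of the plasma membrane that makes the messenger cyclic AMP, had site A (chromosome 16, 3965998 to 3966005) at 20.4, 18.0 and 18.1 in R298P. D312A replicates 2 and 3 held it at 16.9 and 17.4 and EGFP replicate 3 at 18.8. Site B (3965824 to 3965896) had values of 19.5 in D312A replicate 1, 18.2, 25.3 and 25.1 in WT, and 24.3 and 21.8 in EGFP replicates 1 and 2. Every library of ADCY9 thus held exactly 1 of these sites. A further region on the opposite side of site A (3966147 to 3966158), 154.5 nt from it, was held by the 3 WT libraries and no other.

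EXT2, which with EXT1 builds the chains of heparan sulfate, had a site B that no line but WT used. Site A (chromosome 11, 44244793 to 44244810) had values of 15.8, 21.6 and 26.4 in R298P and 10.5 in EGFP replicate 3. Site B (44244640 to 44244654) had values of 8.21, 9.71 and 12.7 in WT and no summit in R298P, D312A or EGFP. Site B of EXT2 was thus a site of WT and not of the other lines in general, and its WT summits had 14.0% to 44.3% of their lists at or below them. Like BFAR, EXT2 lost its call with lists of equal length and with values of at least 10.

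SNRNP35, a protein of the minor spliceosome, which removes a rare class of introns, had the highest values of the 10 genes. Site A (chromosome 12, 123465921 to 123465954) had values of 31.8, 31.1 and 36.8 in R298P and 37.8, 23.6 and 46.4 in D312A, and of 29.7 and 34.6 in EGFP replicates 2 and 3. Site B (123466129 to 123466136) had values of 18.3 in D312A replicate 2, 22.6, 43.4 and 45.4 in WT, and 37.7 in EGFP replicate 1. Here WT and not R298P stood apart: site A was present in 8 of the 9 libraries of R298P, D312A and EGFP. SNRNP35 matched the pattern of TAF5L in 15 of 24 calls, the fewest of the 10 genes, followed by EXT2 with 17.

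**Figure D3:**
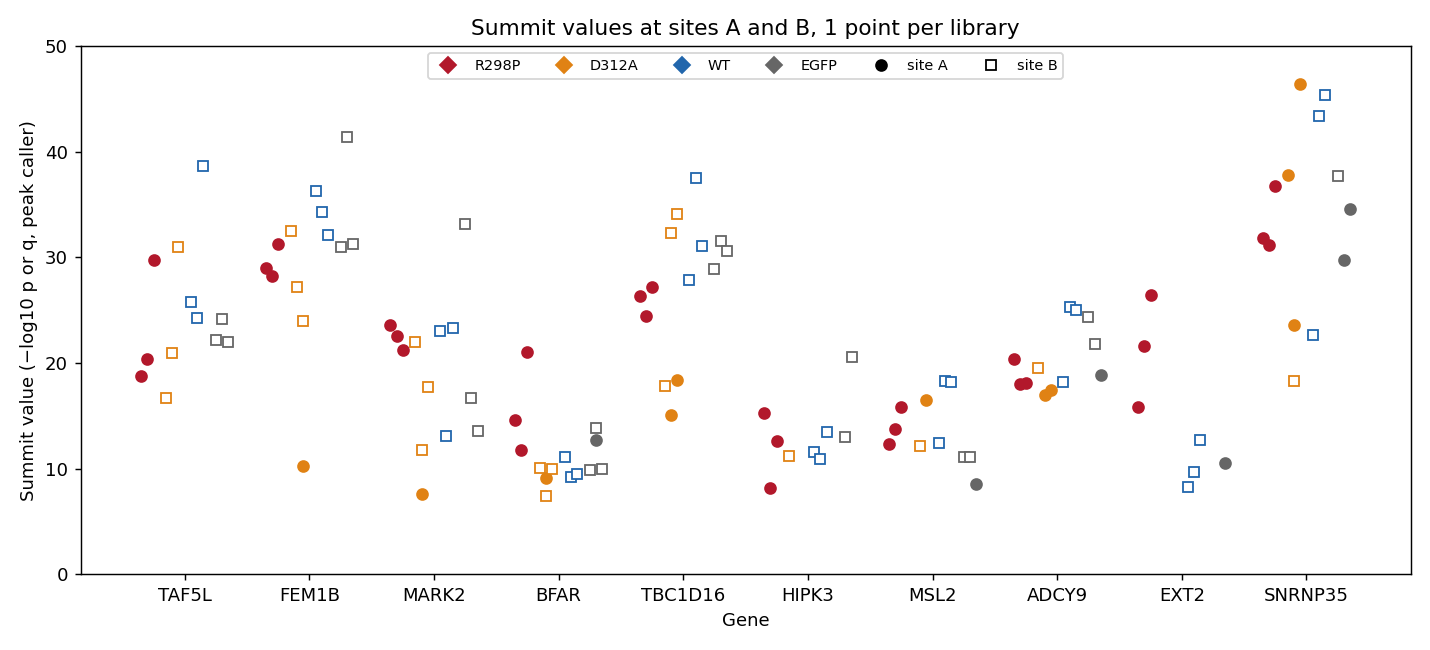
Summit value (−log10 p or q of the peak caller) at site A (filled circles) and site B (open squares), 1 point per library, for each gene, with R298P leftmost and EGFP rightmost. Values at site A in R298P range from 8.18 to 36.8 and values at site B in the other lines from 7.40 to 45.4.

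Sites found in 3 of 3 libraries of a line tend to rank above the middle of its lists: over all such regions of the map, a median of 67.2% of the list lay at or below the summit in R298P and of 66.1% in WT. The 30 summits at site A in R298P had a median value of 21.2 (range 8.18 to 36.8), and a median of 84.0% of the summits of their list lay at or below them. The 71 summits at site B in D312A, WT and EGFP had a median value of 21.8 (range 7.40 to 45.4) and a median of 83.2%. Unlike the regions found in 3 of 3 libraries, these 71 include sites held by only 1 or 2 libraries of D312A or EGFP. Of the summits at site A in R298P 4 of the 30, and of those at site B 23 of the 71, lay below the middle of their list. The 17 summits at site A outside R298P had a median value of 16.9 and a median of 69.8%. Values of different lists are not on a common scale of depth, so these figures are given without a comparison between lines.

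The choice of genes fixed the calls of R298P and WT. D312A and EGFP libraries also counted in the choice of each pair, though their calls were not fixed, and these lines held a mixture of both sites. Of 30 combinations of gene and library, D312A held site A in 11 and site B in 19, and EGFP held site A in 6 and site B in 22. D312A held site A of 7 genes and EGFP of 5. Among all 196 gained regions D312A held 21.4% and EGFP 26.0% of the possible places, and among all 475 lost regions D312A held 38.9% and EGFP 64.7%. At the 10 genes the shares were 36.7% and 20.0% at site A and 63.3% and 73.3% at site B. The choice of pairs favoured site B and disfavoured site A in both lines, so these shares are not free of it. No difference between D312A and EGFP was tested.

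The presence of site A outside R298P was mostly seen in replicates 2 and 3. D312A and EGFP libraries held site A in 1 of 20 combinations in replicate 1 and in 16 of 40 in replicates 2 and 3, whose lists also carry a different name code. Per library, site A was found in 1, 5 and 5 genes in D312A replicates 1, 2 and 3 and in 0, 2 and 4 genes in EGFP. Site B was found in 15 of 20 combinations in replicate 1 and in 26 of 40 in replicates 2 and 3. The labels name no batch, and the part of whatever the name code stands for was not tested.

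The choice of genes fixed whether an R298P or WT library held 1 site or both. In D312A and EGFP it left this open but not free, since their libraries also counted in the choice of each pair. Of the 60 combinations of D312A and EGFP 44 held 1 site, 7 held both and 9 held neither. Of the 7, 6 were in D312A libraries and 1 in EGFP, in FEM1B, SNRNP35, MARK2, BFAR and TBC1D16. D312A replicate 2, which has the shortest list, held 4 of them. In these 7 the authors' caller gave a separate peak to each site. Whether 1 peak covered both positions in the other libraries was not tested, since the lists give no peak edges.

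The distance between sites A and B was part of the rule that chose the genes, and the scatter of summits within regions is given here for scale only. At 3304 regions of the whole map with exactly 1 summit in each of the 12 libraries, the summits of a region spanned a median of 31 nt, and 90% spanned up to 99 nt. In 104 of these regions (3.15%) they spanned at least 137 nt, the shortest distance between the sites of the 10 genes. The median distance between sites A and B was 178 nt (range 137 to 254.5), and between their nearest summits 135.5 nt (range 101 to 246). Since merging caps the gap between neighbouring summits at 100 nt, the spans of merged regions are limited by construction. At 17 of the 20 sites the summits lay within 40 nt, the exceptions being site B of FEM1B, ADCY9 and BFAR.

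Site A had no common side. The strand was available here for 7 genes. Site A lay 5′ of site B in FEM1B, TAF5L and BFAR and 3′ of it in HIPK3, EXT2, MARK2 and MSL2. Over the 15 pairs of the whole map, which include pairs of these genes, the gained region lay 5′ in 4 and 3′ in 6. For 5 of the pairs no strand was available. The mean offset of R298P summits from the median of site B, along the transcript, was -245.3 ± 2.31 nt in FEM1B, -136.7 ± 1.53 nt in TAF5L and -170.3 ± 13.3 nt in BFAR. It was 262.2 ± 14.2 nt in HIPK3, 148.0 ± 8.89 nt in EXT2, 220.0 ± 4.36 nt in MARK2 and 182.3 ± 20.2 nt in MSL2 (SD, n = 3 each). In FEM1B, TAF5L, MARK2, BFAR and MSL2 the pair lay within 5 kb of the 3′ end of the RefSeq span, from 1128 nt in BFAR to 4793 nt in FEM1B. In EXT2 it lay 7235 nt from that end. In HIPK3 it lay 70353 nt from it, in a span of 100352 nt. Exons and untranslated regions were not analysed here.

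Of the 71 regions in the 10 genes, 11 (15.5%) were present in all 12 libraries, in 6 of the genes, and 17 (23.9%) in a single library. Over the whole map the shares were 9.91% and 35.8% of 34313 regions. The 71 regions include the 20 sites A and B, which the choice of genes kept out of both classes. The shares in the 10 genes are therefore lowered by that choice and cannot be compared with those of the whole map. MSL2 had 3 regions in all 12 libraries, 2 of them 504 and 852 nt from site B, with median values of 16.1 and 29.8. TBC1D16 had 3, of which the strongest (80010237 to 80010266) had a median value of 33.5 and lay 70408 nt from site B. TAF5L had 2, one of them (229594470 to 229594555) only 239.5 nt from site B, with a median value of 25.2 over the 12 libraries. FEM1B, EXT2 and SNRNP35 had 1 each, and that of SNRNP35 (123472373 to 123472395), with a median value of 46.7, lies where the span of RILPL1 overlaps. HIPK3, MARK2, ADCY9 and BFAR had no region in all 12 libraries.

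The number of summits per gene differed little between R298P and WT in some of the genes and was lower in R298P in others. FEM1B had 3.67 ± 0.577 summits per R298P library and 4.33 ± 0.577 per WT library, and MSL2 4.67 ± 0.577 in R298P and 4.33 ± 0.577 in WT. TBC1D16 held 6.67 ± 0.577, SNRNP35 2.33 ± 0.577 and MARK2 1.0 ± 0 in both lines. TAF5L held 4.0 ± 0 in R298P and 4.33 ± 0.577 in WT, and EXT2 2.67 ± 0.577 in R298P and 3.0 ± 0 in WT. ADCY9 held 3.0 ± 1.0 in R298P and 4.67 ± 0.577 in WT, HIPK3 1.0 ± 0 in R298P and 2.0 ± 0 in WT, and BFAR 2.0 ± 0 in R298P and 3.0 ± 0 in WT (SD, n = 3 each). The R298P lists held 11590 to 13721 summits and the WT lists 12620 to 15114, and the counts per gene were not adjusted for this. FEM1B also had a region (68290597 to 68290616), 330 nt from site A, in 1 of 3 R298P libraries and in all 9 others.

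Over the whole map, with all libraries, the comparisons that include R298P gave more such pairs than the others. There were 15 against WT (0.368% of 4077 pairs of regions), 13 against EGFP (0.311%) and 6 against D312A (0.176%). D312A had 2 against WT (0.0565%) and 3 against EGFP (0.084%), and WT had 2 against EGFP (0.0488%). These comparisons share libraries and are given side by side. Without replicate 1 the lowest count of an R298P comparison was 32 (against D312A) and the highest of the others 24 (D312A against EGFP). Without replicate 2 these were 45 (R298P against D312A) and 17 (D312A against WT). The order did not hold in full without replicate 3, where R298P against D312A gave 21 pairs and WT against EGFP 22. There R298P gave 42 pairs against WT and 49 against EGFP. With summits merged within 150 nt the order also failed, with 0 pairs for R298P against D312A and 1 for D312A against EGFP. Within 200 nt R298P against D312A gave 0, as did the comparisons without R298P. The order held with merging within 50 nt, lists of equal length, values of at least 10 and distances of 50 to 300 nt. Of the 10 genes, FEM1B, TAF5L, MARK2 and TBC1D16 were called against EGFP and TAF5L against D312A. Since D312A and EGFP libraries counted in the choice of each pair, these calls are a description with no test.

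**Figure D4:**
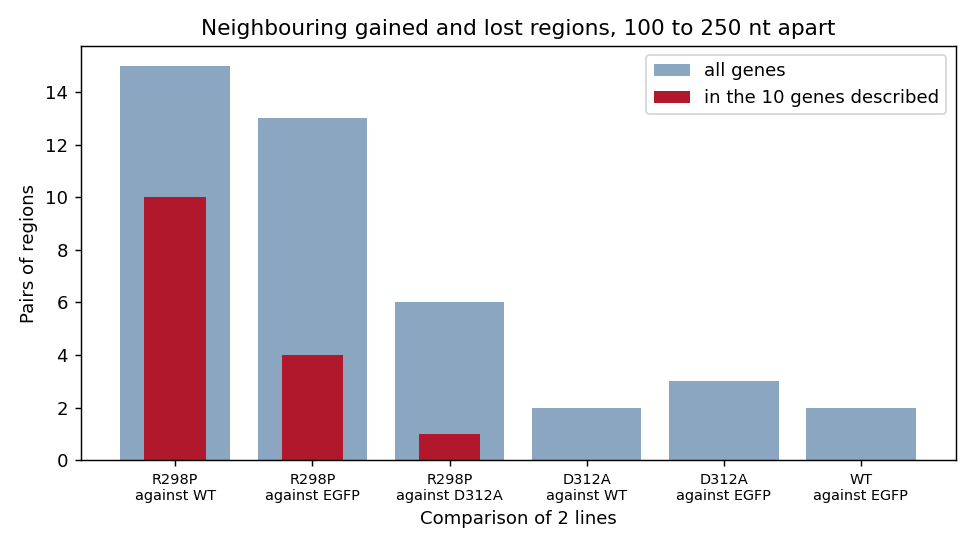
Number of pairs of a gained and a lost region 100 to 250 nt apart in each comparison of 2 lines, over the whole map (wide bars) and in the 10 genes (narrow bars). The comparisons of R298P give 15, 13 and 6 pairs and those of the other lines 2, 3 and 2. The narrow bars are not free of the choice of genes and pairs.

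A gained region had a lost neighbour more often than the remaining regions did, in every comparison. The remaining regions are all those held by at least 1 of the compared libraries and neither gained nor lost. They include regions held by only some libraries of a line. Against WT, 14 of the 196 regions gained in R298P (7.14%) had a lost region 100 to 250 nt away, against 129 of 26890 remaining regions (0.480%), a ratio of 14.9. The ratio was 11.9 for R298P against EGFP and 9.74 for R298P against D312A. It was 16.2 for WT against EGFP, where 2 of 115 gained regions (1.74%) had one. It was 18.1 for D312A against WT (2 of 30 gained regions) and 22.7 for D312A against EGFP (3 of 44). The ratios of the R298P comparisons were no higher than these. The comparisons without R298P rest on 2 or 3 regions each, so the ratios cannot be ranked, and they were not tested. Regions gained in R298P numbered 220 against EGFP (0.787%) and 367 against D312A (1.47%), and regions lost 436 (1.56%) against EGFP and 91 (0.366%) against D312A. Between D312A and WT 0.116% of regions were gained and 1.32% lost, between D312A and EGFP 0.168% and 1.17%, and between WT and EGFP 0.408% and 0.255%. Of the regions gained in R298P against WT 44.4% had any region at this distance, against 26.5% of the remaining regions, while for WT against EGFP the shares were 26.1% and 26.4%.

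The pairs lay in 13 genes and at 1 place on chromosome 7 assigned to no single gene. The 4 genes besides those described were FAM117B, MARVELD2, PTCHD4 and PBDC1. FAM117B (chromosome 2, site A at 202765820 to 202765827, site B at 202765699 to 202765711) matched the pattern of TAF5L in 23 of 24 calls, as FEM1B and MARK2 did. MARVELD2, which encodes a tight junction protein, matched in 21, PTCHD4 in 18 and PBDC1 in 15. The place on chromosome 7 (site A at 76075164 to 76075215, site B at 76075015 to 76075029) matched in all 24.

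Relatives and partners of the 10 genes were examined from lists of their families and complexes. Of 55 genes in the families or complexes of all but BFAR 36 held a region, 0 held a pair, 2 held a gained region and 1 a lost region. Over all 10457 genes with a region 0.124% held a pair, 1.62% a gained and 3.94% a lost region, so that no pair among 36 genes does not set the lists apart. EXTL3, a relative of EXT2, gained a region in 3 R298P and 2 EGFP libraries. ADCY7, a relative of ADCY9, gained one (chromosome 16, 50315636 to 50315659) in 3 R298P libraries and no other. TADA2B, which like TAF5L belongs to SAGA, lost one (chromosome 4, 7055603 to 7055639) that 2 D312A, 3 WT and 3 EGFP libraries held.

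The amounts of these transcripts in the input libraries were not analysed here, because the authors' deposited table is keyed by Ensembl identifiers and the gene reference at hand holds 0 of these.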

How the data were processed

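Each of the 12 immunoprecipitated libraries came with a summit list made by the authors. The submitters' processing notes give build hg38 and name, without roles or settings, MACS2 2.1.2, STAR 2.7.9a, HOMER 4.9, edgeR, bedtools 2.17.0, Picard, featureCounts, Trim Galore 0.4.4 and FastQC 0.11.2. The value of a deposited summit was read from its range as a −log10 p or q value; which of these, and against which input, is not stated there. The summit names of R298P replicate 2 carry a version mark that the other lists lack. The authors' deposited table for input RNA holds log2 fold changes, a likelihood ratio score and p-values for 42677 genes, and 18 further columns that no label ties to a sample. None of its values were used.

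Summit positions (1-based, hg38) from all lists were merged within 100 nt. Gene spans came from RefSeq (GRCh38.p14), and strands from its promoter table, which held 7 of the 10 genes. Each region took the name of the single protein-coding gene spanning it, or failing that of a single lncRNA gene. In each gene the pair of regions 100 to 250 nt apart with the largest excess of R298P libraries at one and of the other lines at its neighbour was taken, and for HIPK3 the limits were widened to 50 and 300 nt, a choice made after seeing the data, as was the score threshold of 3. The named genes are the 10 members, genes outside them by their match over 24 calls, and relatives with a called region. Groups came from the sample titles. The genes and lists were chosen with earlier results of these data known. The pair search was tested on simulated summits with little scatter, a single distance and no missing calls. The sites described here scatter more and miss calls, so that test checks the code only. Python 3.11.15, pandas and numpy were used. Sequences at the sites were not analysed here.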

Additional observations from a re-analysis of the deposited data

How the results depend on the processing

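The number of the 10 genes with a gained and a lost region 100 to 250 nt apart was 9. With summits merged within 150 nt it was 2 (MARK2 and SNRNP35) and within 200 nt 1 (MARK2); the count of genes whose excess of R298P at site A and of the other lines at site B summed to at least 3 libraries was likewise 2 and 1, and the count of genes with site A on the 3′ side was 1 in both. This follows from construction, since the nearest summits of most pairs lie under 150 nt apart. Lists of equal length and values of at least 10 each left 7 genes, without BFAR and EXT2. Assigning each summit to the nearer site within 60 nt gave 9, without FEM1B and with HIPK3. Leaving out 1 replicate number gave 8 to 9 genes (8 without replicate 2, where FEM1B was lost) and 1 R298P library 9; genes chosen on all 3 libraries keep such calls unless the merging changes, so this says nothing of stability; the R298P libraries left out and, for this count, the nearer-site assignment were added after seeing the data. Leave-one-out over the whole map, with replicate numbers or single R298P libraries left out, gave 23 to 68 pairs where all libraries gave 15, with 402 to 841 gained and 695 to 1347 lost regions, since fewer libraries must then meet the condition. Without 1 replicate number the other comparisons gave 49 to 61 pairs (R298P against EGFP), 21 to 45 (R298P against D312A), 14 to 22 (D312A against WT), 14 to 24 (D312A against EGFP) and 13 to 23 (WT against EGFP). Pairs over the whole map numbered 27 with merging within 50 nt, 2 within 150 nt and 1 within 200 nt. Gained regions numbered 113 with merging within 200 nt and lost regions 264 with lists of equal length. Regions in all 12 libraries in the 10 genes numbered 18 with merging within 200 nt, against 11. No paired analysis was possible because the results come from no test. The depth behind the lists is unknown, so a site without a summit may lie below the authors' threshold. The sequence windows were not run.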
